A study of Mus musculus with 17 samples.

Results

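Tek, Notch4, Egfl7, Mmrn2 and Reck, genes best known from blood vessel endothelium, were followed across 17 RNA-seq libraries of mouse embryonic stem cells. They are 5 of the 55416 genes in the count tables, found by matching Ensembl identifiers to mouse symbols, and each symbol matched 1 identifier. The genes were chosen from a list drawn up with the knockdown results of these libraries in view. Their knockdown differences are therefore given below as a description with no p-value. Counts of them called in a knockdown contrast are printed only beside the share of all genes called. Only the comparison of RNA on endoplasmic reticulum (ER) ribosomes with whole-cell RNA in control cells is used as a test of them. That test shares its control libraries with the knockdown contrasts, and the choice was made with earlier results of these data known. All 5 genes passed the filter on low counts in every fit, with 104 to 1943 counts in a library.

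The cells were the E14Tg2a.4 line with a FLAG-TEV-AviTag on the ribosomal protein Rpl31, cultured in serum medium with leukemia inhibitory factor. All groups carry this tag, belong to the ALIBi experiment, in which tagged ribosomes close to the ER are biotinylated, and received an siRNA. The siRNA was scramble (the control), against Nmd3 (an adaptor for nuclear export of the large ribosomal subunit) or against Gnl3 (nucleostemin, a nucleolar GTPase). Each lysate gave a whole-cell library and a library of RNA from the purified ER ribosomes. Whole-cell libraries number 3 per siRNA, and ER ribosome libraries number 3 for Nmd3 siRNA, 3 for Gnl3 siRNA and 2 for scramble siRNA (replicates 2 and 3). All come from a single engineered line, and the labels call the replicates biological.

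Tek encodes Tie2, the receptor tyrosine kinase for angiopoietins, which governs the stability of vessels. Notch4 is the Notch family receptor most tied to endothelium, and Egfl7 is a secreted matrix protein of growing vessels whose gene also carries the microRNA miR-126. Mmrn2 (multimerin 2) is an extracellular matrix glycoprotein of the EMILIN and multimerin family. Reck is a membrane-anchored inhibitor of matrix metalloproteinases and, with Adgra2, a coreceptor for Wnt7 ligands in brain endothelium. All 5 proteins enter the secretory pathway, so their mRNAs are translated at the ER. Embryonic stem cells are not endothelium.

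Depth was 15.2 to 29.9 M gene counts per library. Log2 levels correlated across genes at 0.990 to 0.995 within either fraction once Nmd3 whole-cell replicate 2 and Gnl3 whole-cell replicate 3 were left out. Those libraries stood apart, correlating with the 7 remaining whole-cell libraries at 0.897 to 0.928, with mitochondrial RNA at 0.769% and 6.14% of counts against 1.15% to 2.03% in those 7. Fold changes of the 5 genes that rest on them are given with and without them. Nmd3 mRNA was 24.1 to 25.2 CPM (counts scaled to the library's total of gene counts) on ER ribosomes after its siRNA and 120.0 to 124 CPM after scramble. Gnl3 mRNA was 26.9 to 31.6 CPM there after its siRNA and 170.0 to 177 CPM after scramble. Whole-cell RNA held 43.2 to 72.3 CPM of Nmd3 after its siRNA and 150 to 154 CPM after scramble. For Gnl3 the whole-cell values were 54.2 to 88.2 CPM and 256 to 272 CPM. Both siRNAs thus lowered their targets as labelled, with a wider spread after knockdown in whole-cell RNA.

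The genes' start regions are shown because Notch4 and Reck moved together across the siRNAs while Tek moved the other way after Gnl3 siRNA. Each line gives 250 bases before and 50 after the start from RefSeq on the forward strand of build GRCm38.p6, where Tek is at chr4:94739039-94739338, Notch4 at chr17:34564045-34564344 and Reck at chr4:43875280-43875579. Capitals mark matches to any of 6 short motifs searched on both strands.
Tek: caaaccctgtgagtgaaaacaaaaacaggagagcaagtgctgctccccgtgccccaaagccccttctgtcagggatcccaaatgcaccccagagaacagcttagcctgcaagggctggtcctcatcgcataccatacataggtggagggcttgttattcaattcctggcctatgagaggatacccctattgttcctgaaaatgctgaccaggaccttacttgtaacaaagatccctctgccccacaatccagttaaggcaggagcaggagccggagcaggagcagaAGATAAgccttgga
Notch4: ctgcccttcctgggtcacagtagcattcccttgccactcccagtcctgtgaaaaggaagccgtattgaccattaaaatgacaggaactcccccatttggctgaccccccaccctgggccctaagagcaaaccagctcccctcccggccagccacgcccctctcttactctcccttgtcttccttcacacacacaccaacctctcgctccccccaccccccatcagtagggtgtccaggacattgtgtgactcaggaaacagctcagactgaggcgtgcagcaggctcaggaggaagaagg
Reck: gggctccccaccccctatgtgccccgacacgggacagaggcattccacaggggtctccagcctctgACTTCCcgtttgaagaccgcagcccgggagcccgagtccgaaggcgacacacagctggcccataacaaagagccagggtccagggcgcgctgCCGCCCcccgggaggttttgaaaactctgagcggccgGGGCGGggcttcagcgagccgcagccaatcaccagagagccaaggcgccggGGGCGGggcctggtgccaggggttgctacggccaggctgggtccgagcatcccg

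With the start base counted as +1, the Tek window held 1 match, the GATA core at +37. The Reck window held the ETS core on the reverse strand at -184 and 3 GC boxes at -92 (reverse strand), -55 and -4, and no 2 matches overlapped. The Notch4 window held none of the 6. Shares below are of 32851 start regions of the same length. The ETS core, written GGAAGT, was held by 23.8% of them. The GATA core was AGATAA, a form bound by factors of blood and vessel cells, and was held by 11.2%. For the RBPJ core, through which Notch signals act, the letters were GTGGGAA and the share was 6.38%. The forkhead core was searched as GTAAACA and the share was 3.65%. The GC box, bound by SP and KLF factors, was searched as GGGCGG and was in 35.7%. The TATA box was searched as TATAAA and was in 13.6%. GC content was 52.0% for Tek, 58.3% for Notch4 and 69.3% for Reck, beside a median of 52.7% over all regions. A match describes letters only, and binding was not measured. Egfl7 has 3 starts in the same table, with 2 ETS cores, 1 ETS core and 4 GC boxes, some of them overlapping each other, in turn. Mmrn2 is named only.

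The miR-126 arm that the Egfl7 gene carries is shown because it shares the Egfl7 transcript. Its mature sequence lies at chr2:26591402-26591423 on the forward strand of GRCm38.p6 with the seed in capitals.
miR-126a-3p: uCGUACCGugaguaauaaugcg
The Mir126a entry had a count of 0 in every library of this poly(A)-selected RNA. All 73 of its bases lie in Egfl7 exons on the same strand. That 0 may therefore come from how overlapping reads were counted, and nothing about miR-126 is read from it. The values below are those of the Egfl7 entry. The Egfl7 gene spans chr2:26580014-26593120 in GRCm38, and 64 bases of its exons lie opposite exons of Agpat2, an acyltransferase gene that had 219 to 1653 counts in a library. Whether counting used the strand is not given in the sources used here, so how reads in those 64 bases were counted is not known. Exons of the other four overlapped no exon of another gene in that annotation. They span chr4:94739289-94874976 (Tek), chr17:34564268-34588503 (Notch4), chr14:34375465-34404287 (Mmrn2) and chr4:43875530-43944806 (Reck), all on the forward strand.

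Levels between genes can be compared only per length, and exon lengths from GENCODE M21 were 4.712 kb for Tek, 8.061 kb for Notch4, 3.581 kb for Egfl7, 3.974 kb for Mmrn2 and 4.779 kb for Reck. In whole-cell RNA after scramble siRNA, Egfl7 was the highest per length at 6.36 ± 0.45 CPM per kb (SD, n = 3). Mmrn2 stood at 2.702 ± 0.21, Reck at 2.46 ± 0.21 and Notch4 at 2.45 ± 0.28 CPM per kb, with overlapping values over the libraries. Tek was the lowest at 1.72 ± 0.069 CPM per kb. On scramble ER ribosomes Egfl7 reached 18.3 ± 0.73 CPM per kb (SD, n = 2), and the other four lay between 2.15 and 3.25 CPM per kb.

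**Figure D1:**
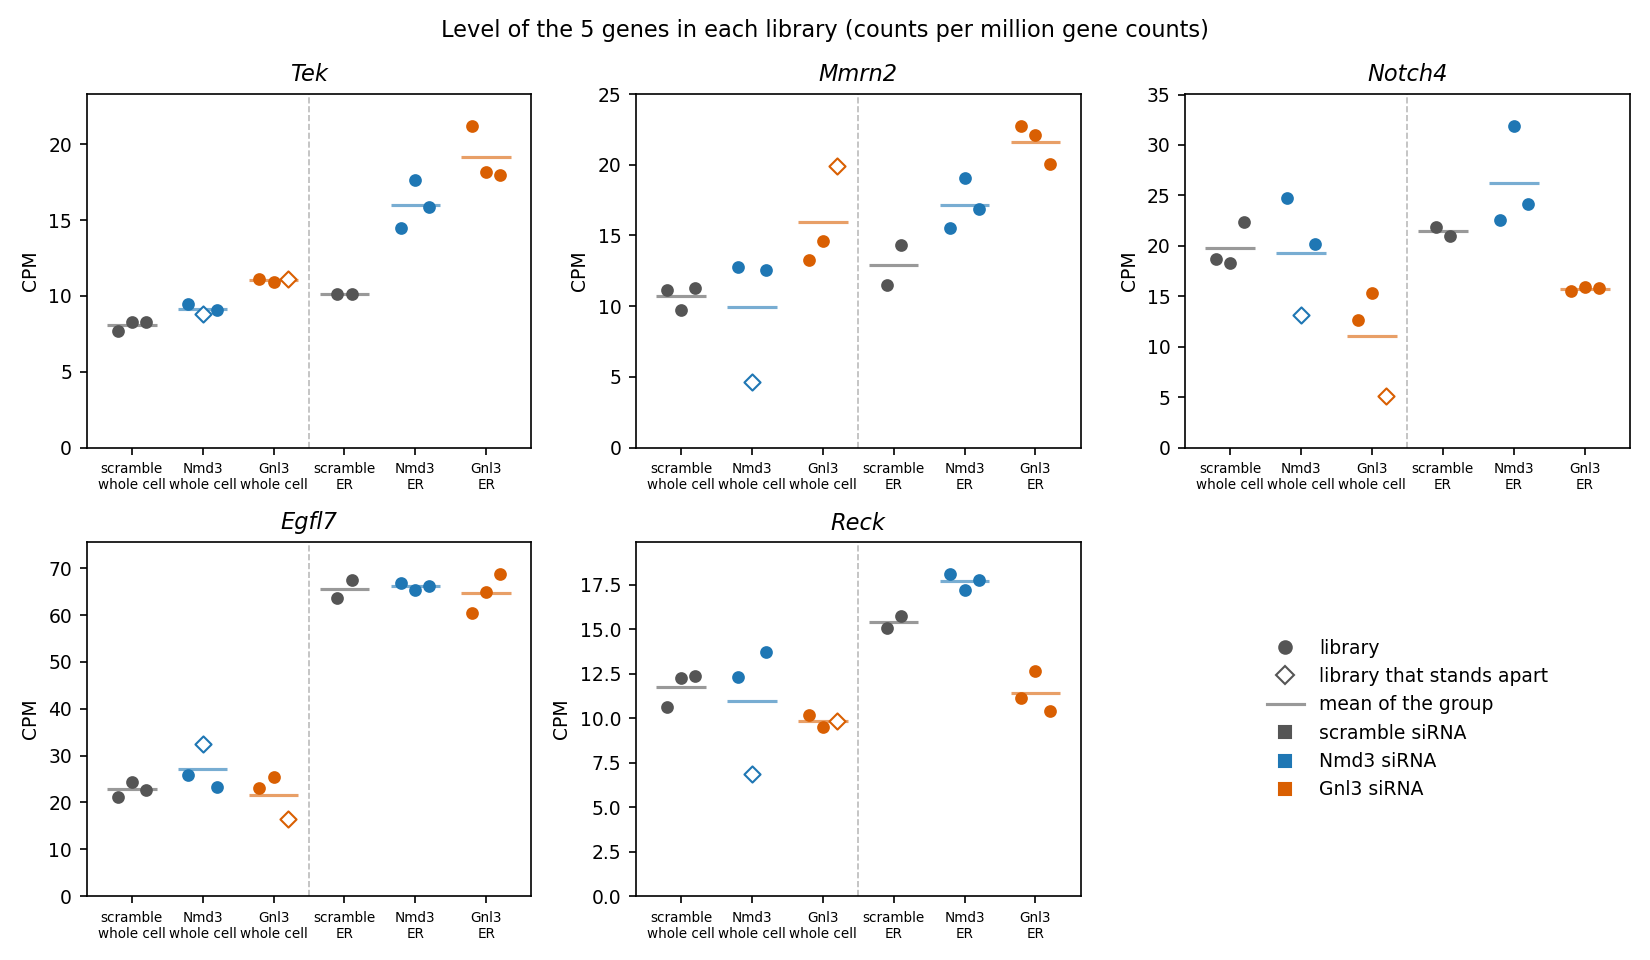
Level of each gene (y axis, CPM, from 0) in each of the 17 libraries (points) by siRNA and fraction, with the mean of each group as a line. Tek is higher in all 6 knockdown ER libraries than in the 2 scramble ER libraries, Egfl7 separates the fractions and not the siRNAs, and open diamonds mark the 2 whole-cell libraries that stand apart.

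Tek, the angiopoietin receptor gene, was higher after both siRNAs, most of all on ER ribosomes. On ER ribosomes it stood at 10.1 and 10.2 CPM after scramble siRNA, at 14.5, 17.7 and 15.9 CPM after Nmd3 siRNA and at 21.2, 18.2 and 18.0 CPM after Gnl3 siRNA. In whole-cell RNA it stood at 7.72, 8.30 and 8.26 CPM after scramble, at 9.49, 8.78 and 9.06 CPM after Nmd3 siRNA and at 11.1, 10.9 and 11.1 CPM after Gnl3 siRNA. The 3 siRNA groups did not overlap in either fraction, and the order was scramble, Nmd3, Gnl3 in both. How many of all genes separate in this way was not counted. Nothing is therefore read from groups that do not overlap, here or for the genes below. The log2 fold change over scramble on ER ribosomes was 0.67 (SE 0.12) after Nmd3 siRNA, or 1.59-fold, and 0.90 (SE 0.12) after Gnl3 siRNA, or 1.87-fold. In whole-cell RNA it was 0.33 (SE 0.20) and 0.51 (SE 0.20) with all libraries, and 0.19 (SE 0.14) and 0.45 (SE 0.14) without the libraries that stand apart. Over the 6 groups the mean level ran from 8.09 ± 0.32 CPM (SD, n = 3) in scramble whole-cell RNA to 19.1 ± 1.8 CPM (SD, n = 3) on Gnl3 ER ribosomes. The neighbours scramble ER and Nmd3 whole cell in that order changed places when levels were scaled by TMM factors.

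Notch4, the other receptor of the set, was lower after Gnl3 siRNA and higher after Nmd3 siRNA on ER ribosomes. On ER ribosomes it was at 21.9 and 20.9 CPM after scramble siRNA, at 22.6, 31.9 and 24.1 CPM after Nmd3 siRNA and at 15.5, 16.0 and 15.8 CPM after Gnl3 siRNA. The whole-cell libraries held 18.7, 18.3 and 22.3 CPM after scramble, 24.7, 13.1 and 20.1 CPM after Nmd3 siRNA, and 12.6, 15.3 and 5.13 CPM after Gnl3 siRNA. All Gnl3 libraries lay below all scramble libraries of their fraction, and the lowest whole-cell values after each knockdown, 13.1 and 5.13 CPM, are those of the libraries that stand apart. On ER ribosomes the log2 fold change over scramble was -0.45 (SE 0.13) after Gnl3 siRNA and 0.30 (SE 0.12) after Nmd3 siRNA. In whole-cell RNA the Gnl3 value was -0.81 (SE 0.33) with all libraries and -0.49 (SE 0.12) without those that stand apart, and the Nmd3 value was 0.08 (SE 0.32) and 0.17 (SE 0.11). Nmd3 and Gnl3 siRNA differed by 0.76 (SE 0.11) on ER ribosomes, a 1.69-fold higher level after Nmd3 siRNA. Mean levels on ER ribosomes were 15.8 ± 0.22 CPM (SD, n = 3) after Gnl3 siRNA and 26.2 ± 5.0 CPM (SD, n = 3) after Nmd3 siRNA.

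Egfl7, the secreted matrix protein, was the member with the least response to either siRNA on ER ribosomes. There it stood at 63.7 and 67.4 CPM after scramble, at 66.9, 65.4 and 66.2 CPM after Nmd3 siRNA and at 60.5, 65.0 and 68.8 CPM after Gnl3 siRNA. The whole-cell libraries held 21.2, 24.4 and 22.7 CPM after scramble, 25.8, 32.6 and 23.3 CPM after Nmd3 siRNA and 23.0, 25.4 and 16.4 CPM after Gnl3 siRNA. Every siRNA group overlapped scramble in both fractions. The log2 fold change over scramble on ER ribosomes was 0.02 (95% interval -0.11 to 0.15) after Nmd3 siRNA and -0.03 (95% interval -0.16 to 0.10) after Gnl3 siRNA. In whole-cell RNA it was 0.46 (SE 0.27) and -0.03 (SE 0.27) with all libraries, and 0.10 (SE 0.10) and 0.09 (SE 0.10) without those that stand apart.

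Mmrn2, the vascular matrix glycoprotein, was higher after both siRNAs on ER ribosomes. The ER libraries held 11.5 and 14.3 CPM after scramble, 15.5, 19.1 and 16.9 CPM after Nmd3 siRNA and 22.8, 22.1 and 20.0 CPM after Gnl3 siRNA. In whole-cell RNA the values were 11.2, 9.76 and 11.3 CPM after scramble, 12.7, 4.65 and 12.5 CPM after Nmd3 siRNA, and 13.3, 14.6 and 19.9 CPM after Gnl3 siRNA. The 3 ER groups did not overlap and followed the order of Tek. In whole-cell RNA the lowest and the highest of the 9 values, 4.65 and 19.9 CPM, are the libraries that stand apart, and without them the groups did not overlap either. Log2 fold changes over scramble on ER ribosomes were 0.42 (SE 0.12) after Nmd3 siRNA and 0.74 (SE 0.12) after Gnl3 siRNA, 1.34-fold and 1.67-fold. Whole-cell log2 fold changes after Nmd3 siRNA were -0.03 (SE 0.30) with all libraries and 0.23 (SE 0.13) without those that stand apart, and after Gnl3 siRNA 0.64 (SE 0.30) and 0.38 (SE 0.12).

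Reck, the metalloproteinase inhibitor, followed Notch4 and not Tek. On ER ribosomes it was at 15.1 and 15.8 CPM after scramble, at 18.1, 17.2 and 17.7 CPM after Nmd3 siRNA and at 11.1, 12.6 and 10.4 CPM after Gnl3 siRNA. In whole-cell RNA it was at 10.6, 12.3 and 12.3 CPM after scramble, at 12.3, 6.85 and 13.7 CPM after Nmd3 siRNA and at 10.2, 9.48 and 9.82 CPM after Gnl3 siRNA. The 3 ER groups did not overlap, with Gnl3 lowest and Nmd3 highest. The ER log2 fold change over scramble was -0.43 (SE 0.11) after Gnl3 siRNA, or 0.74 times the scramble level, and 0.21 (SE 0.11) after Nmd3 siRNA. The knockdowns differed from each other there by 0.64 (SE 0.10). In whole-cell RNA the Gnl3 value was -0.20 (SE 0.21) with all libraries and -0.26 (SE 0.13) without those that stand apart, and the Nmd3 value was 0.00 (SE 0.21) and 0.14 (SE 0.13).

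**Figure D2:**
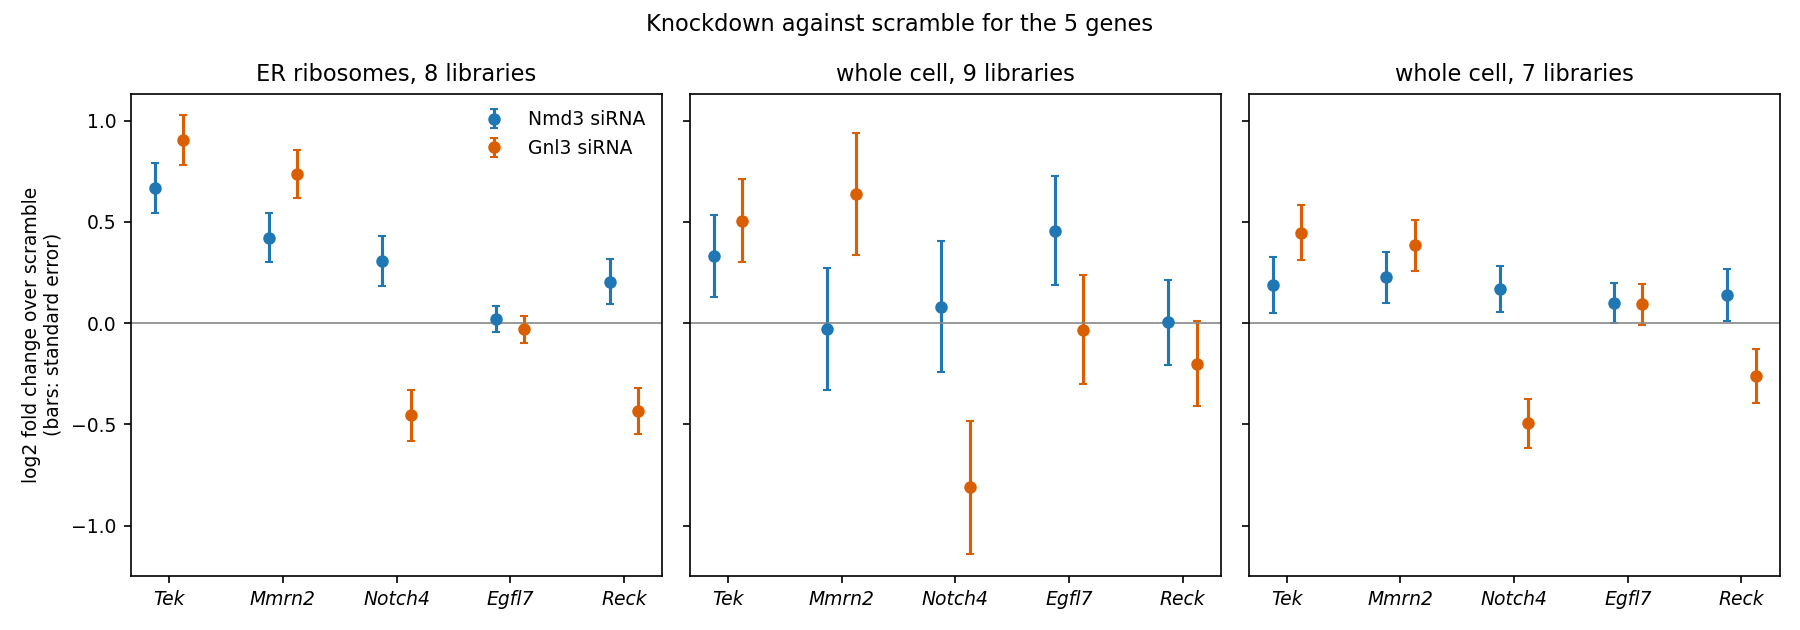
Log2 fold change of each gene over scramble (y axis, bars are 1 standard error) after Nmd3 and Gnl3 siRNA, on ER ribosomes and in whole-cell RNA with 9 and with 7 libraries. On ER ribosomes Tek and Mmrn2 lie above 0 for both siRNAs, Notch4 and Reck lie on opposite sides of 0 for the 2 siRNAs, and Egfl7 lies within 0.03 of 0.

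On ER ribosomes the edgeR test at an adjusted p under 0.05 called 1.17% of 17632 genes for Nmd3 siRNA, 2.68% for Gnl3 siRNA and 2.19% between the siRNAs. Among the 5 genes it called 1, 3 and 2. Since these contrasts chose the genes, nothing is read from those counts. Both knockdowns share the 2 scramble ER libraries, and leaving out 1 of them changes the counts. Without scramble ER replicate 2 the test called 1 of the 5 after Gnl3 siRNA and 0 after Nmd3 siRNA, with 70 and 25 genes called in all. Without scramble ER replicate 3 it called 0 of the 5 after Nmd3 siRNA, with 120 genes called for Gnl3 siRNA and 23 for Nmd3 siRNA. Leaving out Gnl3 ER replicate 1, 2 or 3 gave 211, 299 and 253 genes for Gnl3 siRNA and 159, 206 and 204 between the siRNAs, and leaving out Nmd3 ER replicate 2 gave 366 for Nmd3 siRNA and 703 between them. With all 17 libraries in 1 fit it called 0 of the 5 in each ER contrast.

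In whole-cell RNA the test called 0 of 17310 genes (0%) in each of the 3 contrasts with all libraries. At an unadjusted p under 0.05 it held 393, 199 and 1148 genes for Nmd3, Gnl3 and the 2 siRNAs against each other, and DESeq2 called 0, 1 and 1. Without the libraries that stand apart the shares were 0.166%, 0.812% and 0.212% of 17490 genes. Of the 5 genes 0, 1 and 1 were then called, and nothing is read from those counts either. In bulk samples a lower level per cell and fewer expressing cells cannot be told apart, here or in any value above.

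In control cells, RNA on ER ribosomes was compared with whole-cell RNA, a contrast other than the knockdown contrasts that the genes were proposed from. Its scramble libraries are, however, the controls of the knockdown contrasts in each fraction, and earlier results of these data were known when the genes were chosen. The adjusted p-values of the 5 genes here are therefore not independent of that choice. Egfl7 was 2.82-fold higher on ER ribosomes, a log2 fold change of 1.49 (SE 0.22, adjusted p = 0.000689), with both ER libraries above all 3 whole-cell libraries. It was the one gene of the 5 called, against 12.7% of 18525 genes. The values of the rest were 0.36 (SE 0.17, adjusted p = 0.196) for Reck, 0.30 (SE 0.17, adjusted p = 0.3) for Tek, 0.24 (SE 0.27, adjusted p = 0.637) for Mmrn2 and 0.09 (SE 0.29, adjusted p = 0.887) for Notch4. The median of all genes was 0.02. Egfl7 stayed called when any 1 scramble library was left out, while the genes called in all fell to 541 and 670 without ER replicate 2 or 3 and to 1337, 1549 and 1366 without whole-cell replicate 1, 2 or 3.

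The 2 libraries that stand apart are in this fit through its shared estimate of spread. Without them the fold changes hardly moved and the spread narrowed, and 50.3% of 18271 genes were called. Reck was then called too, at 0.36 (SE 0.12, adjusted p = 0.00987), and Egfl7 stood at 1.50 (SE 0.08, adjusted p = 3.51e-18). Tek, at 0.30 (SE 0.13, adjusted p = 0.0541), Mmrn2, at 0.24 (SE 0.13, adjusted p = 0.111), and Notch4, at 0.08 (SE 0.13, adjusted p = 0.614), were not. A fit that pairs the fractions of each lysate by a block gave Egfl7 1.44 (SE 0.26, adjusted p = 0.0367) with all libraries and 386 genes called, and Reck 0.30 (SE 0.13, adjusted p = 0.056) without those that stand apart.

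**Figure D3:**
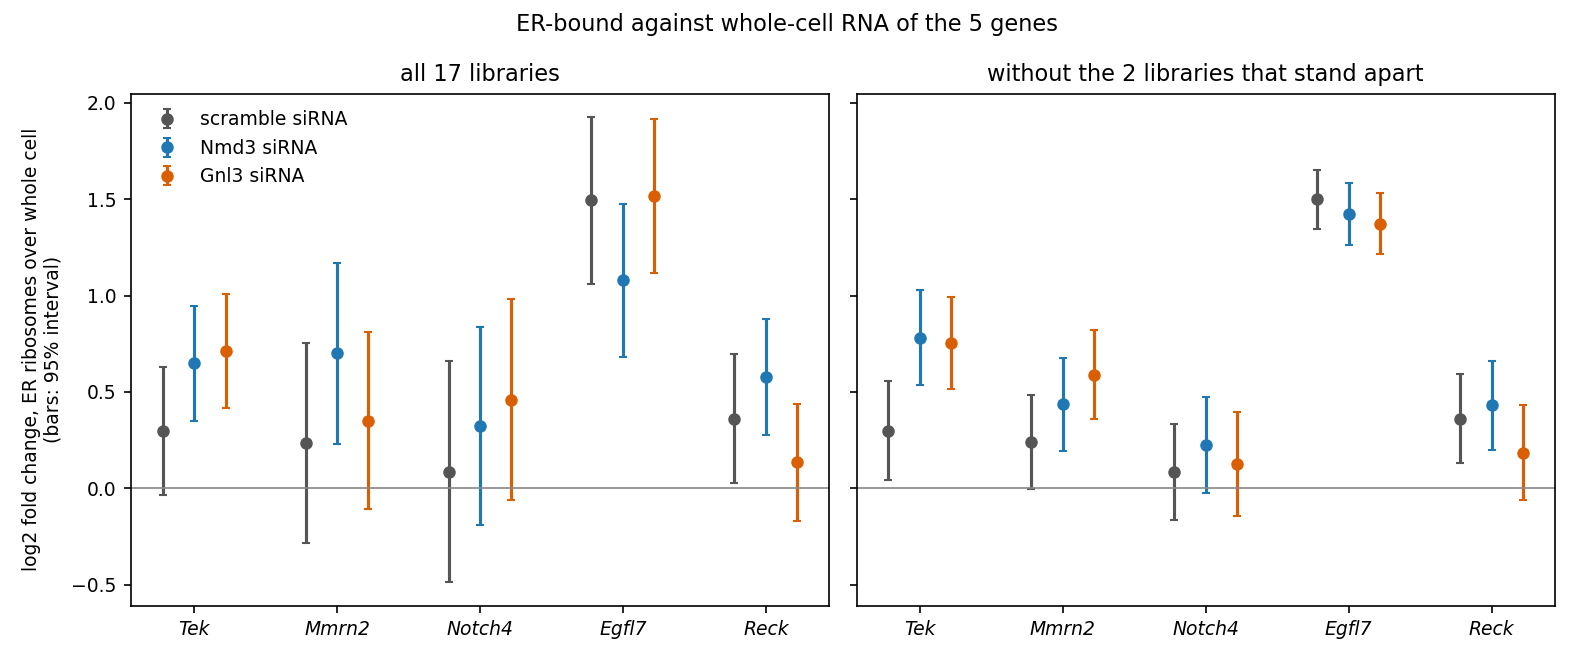
Log2 fold change of ER ribosome RNA over whole-cell RNA (y axis, bars are 95% intervals by a normal approximation) for each gene and siRNA, with all 17 libraries and without the 2 that stand apart. Egfl7 lies highest for every siRNA, between 1.08 and 1.52, and Notch4 has intervals that reach 0 in both panels.

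After the knockdowns the same ratio is a description, since the ER libraries in it also entered the choice of the genes. Egfl7 remained the highest, at 1.08 (SE 0.20) after Nmd3 siRNA and 1.52 (SE 0.20) after Gnl3 siRNA, or 1.42 (SE 0.08) and 1.37 (SE 0.08) without the libraries that stand apart. The Tek ratio was 0.65 (SE 0.15) and 0.71 (SE 0.15), or 0.78 (SE 0.13) and 0.75 (SE 0.12) without those libraries. For Mmrn2 it was 0.70 (SE 0.24) and 0.35 (SE 0.23), or 0.44 (SE 0.12) and 0.59 (SE 0.12) without those libraries. Notch4 stood at 0.32 (SE 0.26) and 0.46 (SE 0.27), or 0.23 (SE 0.13) and 0.12 (SE 0.14). Reck stood at 0.58 (SE 0.15) and 0.14 (SE 0.15), or 0.43 (SE 0.12) and 0.18 (SE 0.13). The order of the 2 siRNAs turned without those libraries for Egfl7, Tek, Mmrn2 and Notch4, and held for Reck. The test called 15.2% of genes after Nmd3 siRNA, with 3 of the 5 among them, and 24.5% after Gnl3 siRNA, with 2 of the 5, and nothing is read from those counts. The median of all genes was -0.11 after Nmd3 siRNA and 0.02 after Gnl3 siRNA. Leaving out Nmd3 ER replicate 1, 2 or 3 gave 1815, 1785 and 1819 genes after Nmd3 siRNA, and leaving out Nmd3 whole-cell replicate 2 gave 5421. Without the libraries that stand apart it called 50.1% and 48.1%, with 4 and 3 of the 5. With the lysate as a block and all libraries it called 1320 genes and 1 of the 5 after Nmd3 siRNA, and 2975 genes and 2 of the 5 after Gnl3 siRNA.

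Whether a knockdown acted more on ER-bound than on whole-cell RNA is the difference between the fractions in the log2 fold change. For Tek that difference was 0.35 (SE 0.23) after Nmd3 siRNA and 0.42 (SE 0.23) after Gnl3 siRNA, and without the libraries that stand apart 0.48 (SE 0.18) and 0.45 (SE 0.18). The values of Mmrn2 were 0.46 (SE 0.36) and 0.11 (SE 0.36), or 0.20 (SE 0.18) and 0.35 (SE 0.17) without them. Notch4, Egfl7 and Reck lay between -0.42 and 0.37 with all libraries and between -0.18 and 0.14 without. The test called 0 of 18525 genes (0%) for either siRNA, with 366 and 177 genes at an unadjusted p under 0.05 and 0 called by DESeq2.

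The gene lists used from here on were drawn up with earlier results of these data known. Adjusted p-values of their genes are therefore not independent of the choice of the lists. Tek signals with angiopoietins, with its partner Tie1 and with the phosphatase Ptprb, and these were scarce. Angpt1 had 4 counts over all 17 libraries and Ptprb had 31, and Tie1 averaged 0.37 CPM. Of the 10 tested genes in the list of the angiopoietin and Tie system, 0 rose and 1 fell on ER ribosomes after Gnl3 siRNA. After Nmd3 siRNA 0 passed. The share of all genes called was 2.68% for Gnl3 siRNA and 1.17% for Nmd3 siRNA. The one that fell was Angptl4, an angiopoietin-like inhibitor of lipoprotein lipase, by 0.46 on the log2 scale (SE 0.09, adjusted p = 0.00427), with 29.9 and 27.4 CPM after scramble and 22.0, 21.6 and 19.2 CPM after Gnl3 siRNA. In the list of vascular endothelial growth factor ligands and receptors, 1 of 12 tested genes rose after Gnl3 siRNA and 0 after Nmd3 siRNA. It was Sema3e, a semaphorin ligand of Plxnd1, by 0.47 (SE 0.13, adjusted p = 0.0392). Vegfa itself stood at -0.41 (SE 0.12, adjusted p = 0.123) after Gnl3 siRNA.

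Around Notch4 the Notch pathway was broadly detected. Rbpj, the DNA-binding effector, averaged 321 CPM over all libraries and Notch3, another receptor, averaged 69.3 CPM, neither per length. On ER ribosomes 0 of 35 tested pathway genes other than Notch4 passed after Nmd3 siRNA, beside 1.17% of all genes called. After Gnl3 siRNA 1 rose, beside 2.68% of all genes called, and nothing is read from that count. That gene was Lfng, a glycosyltransferase that modifies Notch receptors, by 0.52 (SE 0.13, adjusted p = 0.0246), with 12.7 and 9.99 CPM after scramble and 17.3, 15.5 and 16.2 CPM after Gnl3 siRNA. Notch3 gave 0.25 (SE 0.14, adjusted p = 0.504) after Gnl3 siRNA. The list's median log2 fold change was 0.05 after Gnl3 siRNA and 0.01 after Nmd3 siRNA, beside medians within 0.01 of 0 for all genes.

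Around Mmrn2, 4 genes of the EMILIN and multimerin list were tested on ER ribosomes, and 0 passed for either siRNA. Over all genes 1.17% were called after Nmd3 siRNA and 2.68% after Gnl3 siRNA, so little can be read from a list this small. Cd93, a receptor gene of Mmrn2, had a count of 0 in every library and Clec14a, another receptor, had 22 counts in all. Around Egfl7, 0 of 6 tested genes passed. That list holds relatives with EGF-like repeats, matrix genes and Agpat2, which lies opposite Egfl7. Agpat2 gave 0.16 (SE 0.07, adjusted p = 0.308) after Nmd3 siRNA and 0.06 (SE 0.07, adjusted p = 0.768) after Gnl3 siRNA.

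Among genes listed around Reck, 1 changed in each direction after Gnl3 siRNA. The list holds metalloproteinases, inhibitors, Wnt7 ligands, receptors and coreceptors, and genes further down the Wnt pathway, Lef1 among them. It too was drawn up with earlier results known, so the adjusted p-values of Mmp14 and Lef1 below carry that limit. Of 16 tested, 1 rose and 1 fell on ER ribosomes after Gnl3 siRNA, beside 2.68% of all genes called. After Nmd3 siRNA 0 rose and 1 fell, beside 1.17% of all genes called. The gene that rose was Mmp14, a membrane-bound metalloproteinase that Reck inhibits, by 0.33 (SE 0.09, adjusted p = 0.0434). The gene that fell was Lef1, a transcription factor at the end of the Wnt pathway, at 93.2 and 83.8 CPM after scramble, 64.1, 59.8 and 65.4 CPM after Nmd3 siRNA and 61.4, 58.2 and 62.3 CPM after Gnl3 siRNA. Both knockdown groups lay below scramble, and Lef1 fell by 0.48 (SE 0.06, adjusted p = 0.000102) and by 0.56 (SE 0.06, adjusted p = 5.55e-06) on the log2 scale. In whole-cell RNA its log2 fold changes were -0.44 (SE 0.21, adjusted p = 0.852) after Nmd3 siRNA and -0.16 (SE 0.21, adjusted p = 0.999) after Gnl3 siRNA with all libraries. Without the libraries that stand apart Lef1 fell there too, by 0.48 (SE 0.08, adjusted p = 0.00348) after Nmd3 siRNA and by 0.39 (SE 0.08, adjusted p = 0.00891) after Gnl3 siRNA.

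Robo4, Eng and Cd34 were the other endothelial genes that rose on ER ribosomes. The list of endothelial identity markers holds 56 genes beside the members, 52 had a count in some library and 39 were tested on ER ribosomes. After Gnl3 siRNA 3 rose and 0 fell, with a median log2 fold change of 0.14, and after Nmd3 siRNA 1 rose and 0 fell, also with a median of 0.14. Over all genes 2.68% and 1.17% were called, with medians within 0.01 of 0. Robo4, an endothelial guidance receptor, was the gene that rose after both, with 3.72 and 3.49 CPM after scramble, 5.95, 9.19 and 6.07 CPM after Nmd3 siRNA and 8.60, 6.32 and 5.9997 CPM after Gnl3 siRNA. Its log2 fold changes were 0.99 (SE 0.22, adjusted p = 0.0293) and 0.94 (SE 0.22, adjusted p = 0.0206). Eng (endoglin, a coreceptor for TGF-beta ligands) rose after Gnl3 siRNA from 61.0 and 65.0 CPM to 91.0, 86.5 and 85.5 CPM, by 0.47 (SE 0.07, adjusted p = 6.52e-05). Cd34, a surface sialomucin, rose from 5.50 and 5.13 CPM to 6.88, 9.00 and 8.63 CPM, by 0.61 (SE 0.17, adjusted p = 0.0443). Pecam1, which stem cells also express, had the highest mean CPM of the list, not corrected for length, and gave 0.27 (SE 0.11, adjusted p = 0.352) after Nmd3 siRNA and -0.06 (SE 0.10, adjusted p = 0.864) after Gnl3 siRNA.

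These list calls rest on few libraries. Without scramble ER replicate 2 or without scramble ER replicate 3, 1 of the 39 was called after Gnl3 siRNA and 0 after Nmd3 siRNA, and with all 17 libraries in 1 fit 0 were called for either. In control cells 2 of the 39 were higher on ER ribosomes than in whole-cell RNA and 0 lower, with a median of 0.30. Over all genes 12.7% were called in either direction, with a median of 0.02. Eng was among those higher with all libraries, by 0.97 (SE 0.19, adjusted p = 0.00399). Without the libraries that stand apart 12 genes of the list were higher and 1 lower, beside 50.3% of all genes called.

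**Figure D4:**
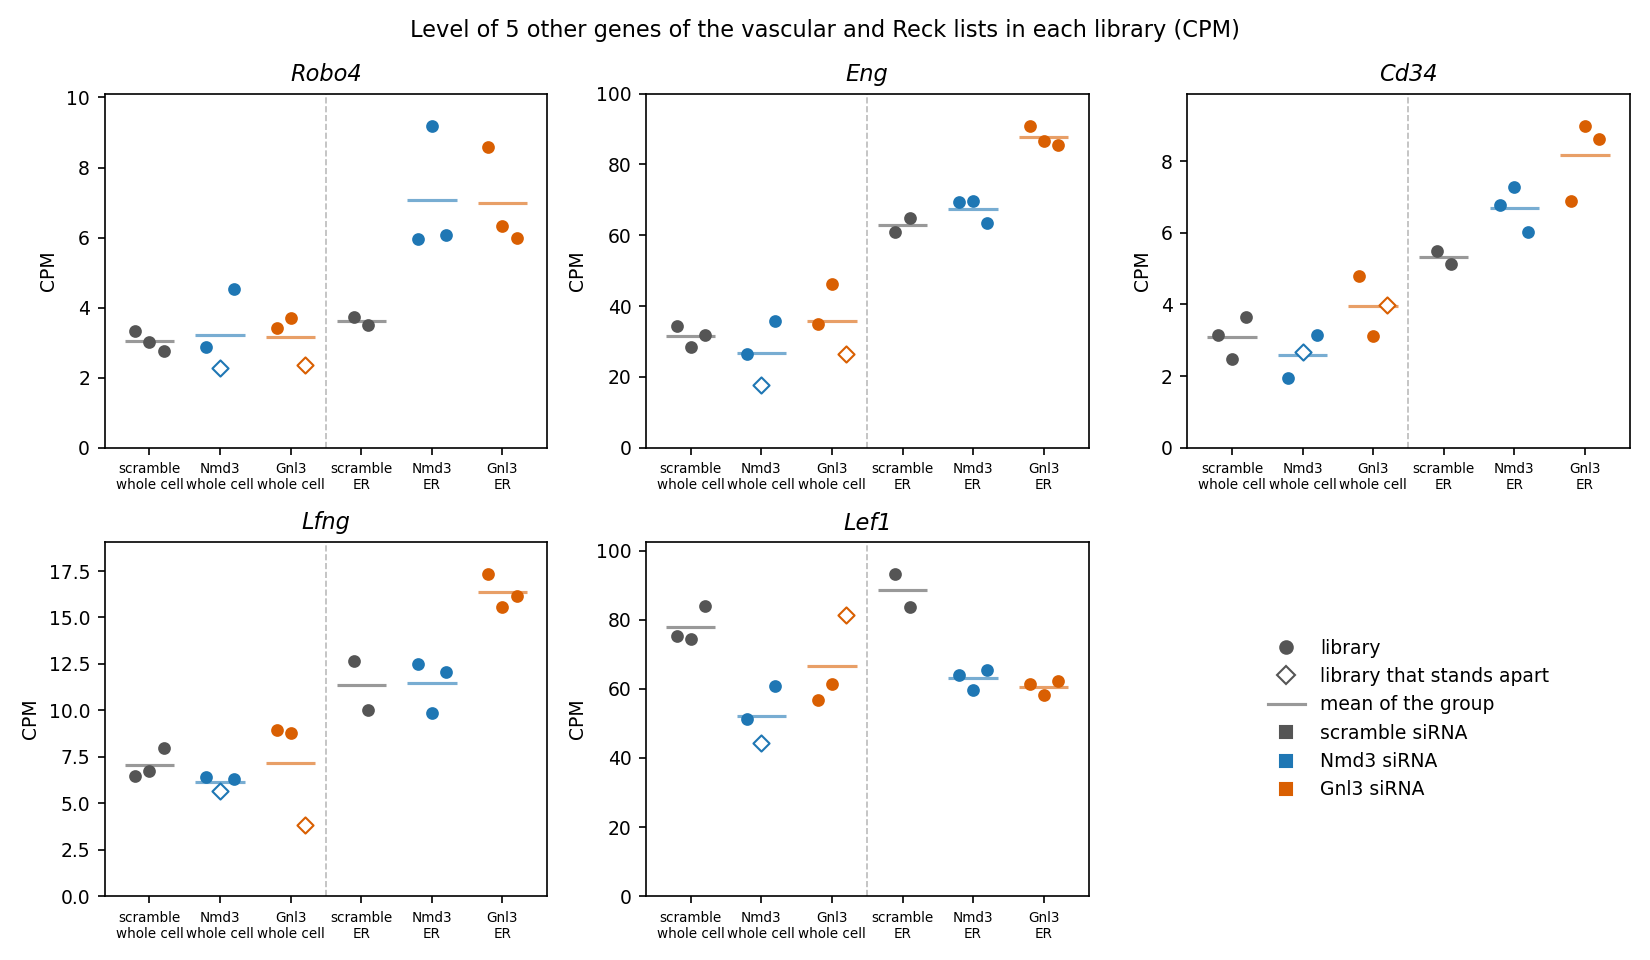
Level (y axis, CPM, from 0) of Robo4, Eng, Cd34, Lfng and Lef1 in each library (points) by siRNA and fraction, with group means as lines and open diamonds for the libraries that stand apart. On ER ribosomes Robo4 is above both scramble libraries after either siRNA, Eng and Lfng are highest after Gnl3 siRNA, and Lef1 is below them after either siRNA.

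Of markers that define endothelium, several were scarce and others were not. The most abundant by CPM were Plvap, Esam, Robo4 and Ecscr, and Esam averaged 6.97 CPM over all libraries, not corrected for length. Of these only Robo4 was called on ER ribosomes. Esam gave 0.49 (SE 0.15, adjusted p = 0.128) after Nmd3 siRNA and 0.37 (SE 0.15, adjusted p = 0.24) after Gnl3 siRNA. Plvap gave -0.17 (SE 0.14) after each. Ecscr gave 0.36 (SE 0.20) and 0.46 (SE 0.19). Of the 12 defining markers, Emcn and Myct1 had a count of 0 in every library, Cdh5 (VE-cadherin) had 20 counts over all 17, and 5 to 7 averaged below 1 CPM in each group. Their summed level was 23.2 to 26.8 CPM in scramble whole-cell RNA, 21.6 to 26.0 and 15.6 to 25.1 CPM after Nmd3 and Gnl3 siRNA there (22.7 to 26.0 CPM, and 25.13 CPM in both Gnl3 libraries, without those that stand apart), 32.8 to 34.4 CPM on scramble ER ribosomes, 39.6 to 42.6 CPM after Nmd3 siRNA and 35.3 to 44.5 CPM after Gnl3 siRNA on ER ribosomes. The sum, which holds Robo4, was thus higher on ER ribosomes after the siRNAs, and overlapped scramble in whole-cell RNA. It was not alone in this. The haematopoietic ER sum was 299 to 304 CPM after scramble, 341 to 379 CPM after Nmd3 siRNA and 325 to 339 CPM after Gnl3 siRNA. Mesoderm, fibroblast and primitive endoderm ER sums also lay above scramble after both, mural and trophoblast sums only after Gnl3 siRNA. The part of such sums in the values of Tek and Mmrn2 was not tested. Unlike the endothelial markers, 17 of 17 pluripotency markers were above 1 CPM in every group. Their summed level was 8954 to 9139 CPM in scramble whole-cell RNA. On ER ribosomes 5 of the 17 fell and 0 rose after Gnl3 siRNA, beside 2.68% of all genes called. The 5 include Nanog, which fell by 0.25 (SE 0.04, adjusted p = 0.000955), and Dppa3, by 0.58 (SE 0.14, adjusted p = 0.017). After Nmd3 siRNA 0 fell and 1 rose, Tbx3, beside 1.17% of all genes called.

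Markers of other cell types that passed on ER ribosomes all rose, beside 1.17% of all genes called after Nmd3 siRNA and 2.68% after Gnl3 siRNA. Of 11 tested haematopoietic markers 1 rose after each siRNA, Laptm5, a lysosomal membrane protein, by 0.48 (SE 0.07, adjusted p = 0.00141) after Nmd3 siRNA and 0.36 (SE 0.07, adjusted p = 0.00833) after Gnl3 siRNA. Of 7 mural cell markers 0 passed for either. Of 9 mesoderm markers 1 rose after Nmd3 siRNA (Bmp4, by 0.43, SE 0.07, adjusted p = 0.000789) and 0 after Gnl3 siRNA. Of 4 fibroblast markers 1 rose after each, Vim, and of 13 primitive endoderm markers 1 rose after Nmd3 siRNA, Sparc, and 2 after Gnl3 siRNA, Sparc and Col4a1. Of 9 trophoblast markers 0 passed after Nmd3 siRNA and 2 rose after Gnl3 siRNA, Krt8 and Peg10. Their part in the values of the 5 genes was not tested.

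The genes' patterns over libraries were set side by side as Pearson correlations of log2 CPM with the mean of each fraction removed, over the 15 libraries other than those that stand apart. All of them share the same siRNA groups, so the values are a description. Tek and Mmrn2 correlated at 0.92 and Notch4 and Reck at 0.80, while Tek correlated with Notch4 at -0.38 and with Reck at -0.48. Egfl7 lay between 0.04 and 0.15 with each of the other four. Over all 17 libraries Tek and Mmrn2 gave 0.63, Notch4 and Reck 0.59 and Egfl7 and Mmrn2 -0.72, so these values differ with the 2 libraries.

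Among 15241 genes with a mean of at least 1 CPM, the closest to Tek were Plod2, a collagen lysyl hydroxylase, at 0.97, Pou4f2 at 0.95 and Plaur, the urokinase receptor, at 0.95. The closest to Mmrn2 were Plxnb2, Msn and Epha2, each at 0.94. Among the closest to Notch4 were Ntn1 (0.95) and Plcd1 (0.94), and Reck was closest to Wfdc2 (0.92), Ccnd3 (0.91) and Ndufaf5 (0.90). For Egfl7 the closest were Rogdi (0.84), Cops5 (0.81) and Grrp1 (0.81). Over all 17 libraries the Tek values became 0.62, 0.74 and 0.74, and the Reck values 0.04, 0.43 and 0.09.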

How the data were processed

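Poly(A) RNA was sequenced from 17 libraries with a directional kit, per the labels' protocols. Each deposited table holds unnormalized counts by gene, made by the authors with STAR 2.7.9a and HTSeq 0.11.2 on GRCm39, and DESeq2 is listed without a version, per the submitters' processing notes. The annotation release and strand setting are not given in the sources used here. The 5 HTSeq lines that name no gene were left out, and the no-feature line alone held 46.6% to 48.3% of each table's sum. A table of gene names gave symbols for 52083 of 55416 identifiers, and GENCODE M21 gave lengths and positions, which are of GRCm38 and not of the counting build.

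Groups were compared in R 4.3.3 with edgeR 4.0.16 (filterByExpr, TMM, robust quasi-likelihood fit, Benjamini-Hochberg adjustment over all genes tested, called at an adjusted p under 0.05). One fit held the 8 ER libraries, one the 9 whole-cell libraries and one all 17. SE is the absolute log2 fold change over the root of the F statistic. CPM uses the sum of gene counts, and likeness used log2 CPM with a prior count of 2. The members and gene lists were chosen with earlier results of these data known. Named genes are the members, the 4 most abundant genes of each list and up to 6 called in a knockdown contrast, the 3 genes most like each member (1 of them is not reported here), and the 2 siRNA targets. Partners and markers named for being at or near 0 (Angpt1, Ptprb, Tie1, Cd93, Clec14a, Cdh5, Emcn, Myct1) fall outside that rule and were chosen after their values were seen. The planned adjusted p of the members' ER ratios after knockdown is not printed, because those libraries also entered their choice. The scramble libraries are the controls of the knockdown contrasts in each fraction, and the adjusted p printed for scramble carries that limit. If the replicates were not separate cultures, p-values measure only technical spread.

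Both fractions of a lysate are paired by the labels' protocols. Residuals of same-numbered libraries in the 2 fractions of an siRNA correlated between -0.14 and 0.03. Between siRNAs, scramble and Nmd3 whole-cell libraries were the pair of groups in which every same-numbered pair was over 0.1 (0.103, 0.295 and 0.211, the second with a library that stands apart), and the whole-cell fit with a replicate block called 0 genes, as without it. Alternatives were DESeq2 1.42.0, other scaling and filters, blocks, other sets of libraries in the fit and leaving out libraries. The code was tested on simulated data.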

Additional observations from a re-analysis of the deposited data

How the results depend on the processing

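No called fold change of the 5 genes changed direction under any alternative run. With all 17 libraries in 1 fit, the ER counts fell to 0 of 5 for Nmd3 siRNA (from 1), Gnl3 siRNA (from 3) and the siRNAs against each other (from 2), and the counts of other endothelial identity markers fell to 0 for Nmd3 siRNA (from 1) and Gnl3 siRNA (from 3). Genes called in all then fell from 206, 472 and 387 to 0, 1 and 2. With no filter on low counts, 2 members and 2 other markers were called for Nmd3 siRNA on ER ribosomes, with 407 genes in all, and 586 between the siRNAs.

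The labels number the replicates, and a replicate block in the ER fit called 126 genes for Nmd3 siRNA and 258 for Gnl3 siRNA, with 0 and 1 of the other endothelial markers and 1 and 2 of the members (from 1 and 3). The paired lysate block of the ER to whole-cell contrast left 1 of 5 members called after Nmd3 siRNA (from 3), with 386, 1320 and 2975 genes for scramble, Nmd3 and Gnl3 siRNA, and 8650, 8543 and 8412 without the libraries that stand apart. With only the libraries of 1 siRNA in the fit, 2 members were called after scramble (from 1) and 0 after Nmd3 siRNA (from 3), with 9859 and 729 genes. Without both libraries that stand apart, 2 members were called in the scramble ER contrast, and 1 each in whole-cell RNA for Gnl3 siRNA and between the siRNAs (both from 0).

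Leaving out 1 library at a time, members called ranged from 1 to 4 for the Nmd3 ER to whole-cell contrast (1 without Nmd3 ER replicate 2), from 1 to 3 for Gnl3 siRNA on ER ribosomes and from 0 to 1 for Nmd3 siRNA there. Other endothelial markers called ranged from 1 to 2 for Gnl3 siRNA and from 0 to 2 for Nmd3 siRNA. Except for settings that hold fewer libraries, the cause was not tested. Depth limits the scarce markers: a gene at 1 CPM has 15.2 to 29.9 counts in a library.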
